A study of Saccharomyces cerevisiae with 56 samples.

Results

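The iron and copper uptake genes are 39 genes of Saccharomyces cerevisiae, taken from a list of gene symbols, out of 5197 named genes on the array. They hold 5 regulators, 8 reductases, 8 permeases and oxidases, 6 genes of siderophore use, 5 copper genes and 7 genes of storage, mitochondrial iron and heme breakdown. Each of the 39 was matched by its symbol to 1 probe. Yeast takes up iron after reductases at the cell surface turn ferric into ferrous iron, which then enters through a high-affinity oxidase and permease complex or through low-affinity transporters. Iron bound to siderophores, small chelators made by other microbes, enters through carriers of its own. The oxidase needs copper, so copper uptake and copper delivery serve iron uptake too. The regulator Aft1 switches on the iron genes when iron is short, and Mac1 does the same for copper uptake. In wine fermentation oxygen is absent and the low-affinity transporter Fet4 and genes of heme synthesis are known to respond to this.

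Transcripts were measured in the haploid strains 59A (MATa, a haploid obtained from EC1118, a commercial wine yeast) and S288C (MATalpha, the laboratory strain of the reference genome), and in 44 segregants of their cross. Parents and segregants all grew in the same synthetic must, SM425, at pH 3.3 with 425 mg/L of nitrogen, iron(III) chloride at 14.5 mg/L and para-aminobenzoic acid at 1 mg/L, which the study added to every culture. Sampling was in stationary phase, when 66 g/L of CO2 had been released and 70% of the fermentation was over. For each parent 2 RNA extracts were hybridised to 3 arrays apiece, while a segregant is 1 spore clone measured on 1 array. The labels call the 2 extracts of a parent biological replicates and the arrays of an extract technical ones, so p-values for the parents rest on 2 biological replicates a strain.

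The values are log2 intensities of 6245 probes on 56 one-colour arrays (7 slides of 8), normalised so that all arrays share 1 distribution. The study sets background at 5.3 and saturation at 16, and here a value below 6.3 was taken as not above background. On this scale a difference between strains is called LogFC, given as 59A minus S288C, with the SE of limma's moderated test. Levels of different genes cannot be set against each other, because each probe has its own brightness. A lower level in a culture can come from fewer cells that hold a transcript or from less of it per cell, and these cannot be told apart. The study's methods warn that a local linkage can be an artifact of sequence changes that weaken binding of the mRNA to its probe. Whether such changes lowered any value of 59A, or of segregants with its alleles, was not tested. Across probes r was at least 0.994 between arrays of an extract and at most 0.891 between arrays of 59A and S288C. The mating type genes followed the strains, since 5 of 5 genes of type a were higher in 59A and 3 of 3 of type alpha were lower, in the same test.

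The first comparison asked which of these genes differed between the wine and the laboratory strain late in fermentation. Copper uptake genes were higher in the wine strain, namely CTR1 and CTR3, together with the siderophore carrier ARN1, although CTR3 was no longer among the genes tested where those with a mean of 6.3 or less were dropped. The genes CUP2, FRE3, FET4, ARN2 and CCC2 were lower in the wine strain. Calls needed an adjusted p under 0.01 together with a LogFC above 0.7 in size, the limits of the study. By this rule 3 of 39 were higher in 59A, beside 12.9% of all 6245 probes, and 5 of 39 were lower, beside 12.4%. The genes were thus called lower about as often as any probe. The median LogFC of the 39 genes was -0.27, with 26 of 39 below 0, while the median over all probes was 0.00 with 3149 of 6245 below 0. The 8 called genes had the same direction on every slide that held a value of both parents.

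**Figure D1:**
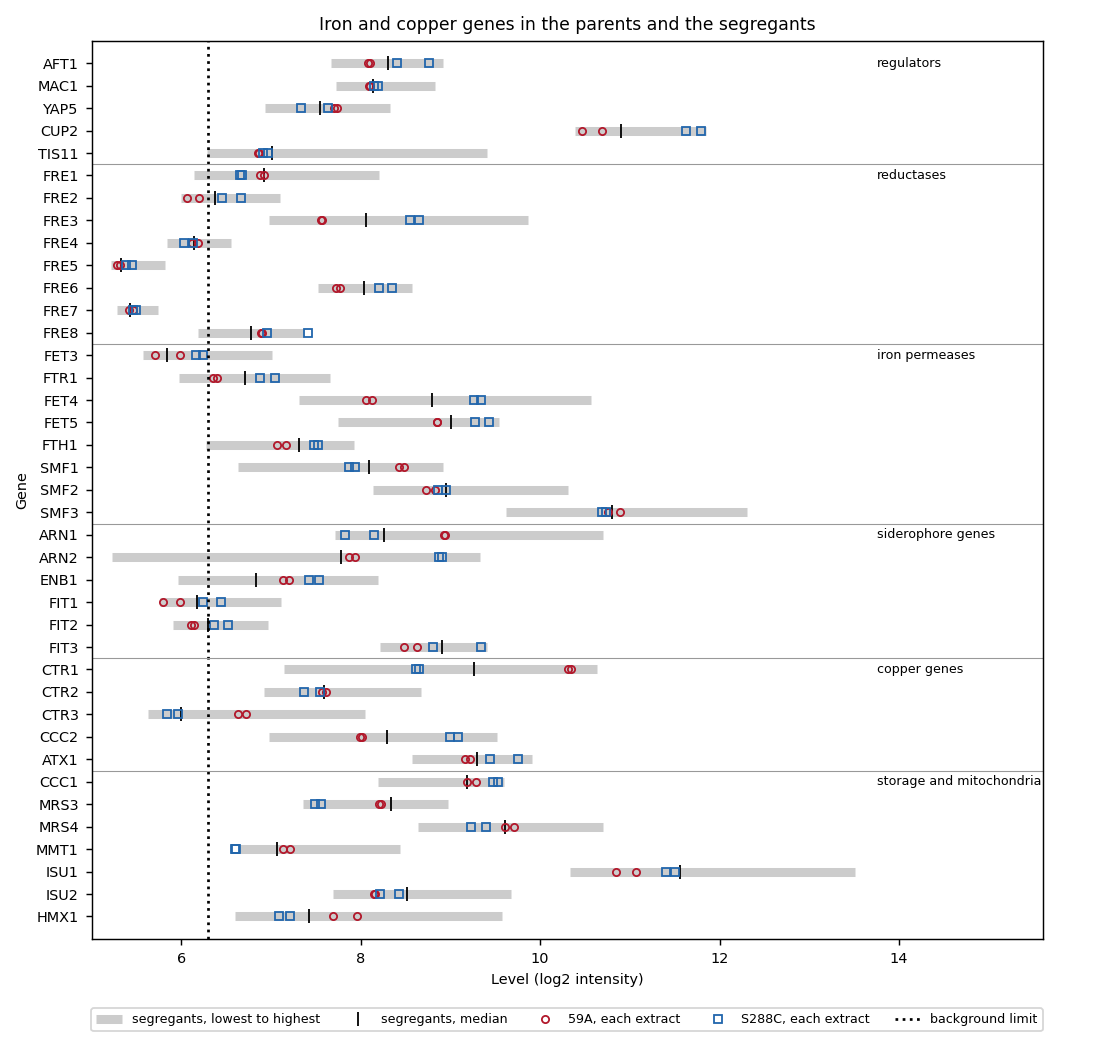
Levels of the 39 genes (log2 intensity, x axis) by role, with open red circles for the 2 extracts of 59A, open blue squares for the 2 extracts of S288C, grey bars from the lowest to the highest segregant and a black tick at the segregant median. CTR1 lay near 10.3 in 59A and near 8.6 in S288C, and the grey bar of ARN2 is the widest, from 5.22 to 9.34; the dotted line is the limit of 6.3.

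Copper uptake showed the largest difference of the 39 genes. CTR1, the high-affinity copper transporter of the plasma membrane, lay at 10.34 and 10.31 in the extracts of 59A and at 8.61 and 8.65 in those of S288C. All 6 arrays of 59A, from 10.29 upwards, lay above all arrays of S288C. The LogFC was 1.69 ± 0.07 (SE, 2 extracts a strain, adjusted p = 4.61e-05), a 3.23-fold higher level in 59A, and the LogFC was 1.69, 1.69 and 1.66 within slides 1, 2 and 5, which held both parents. CTR3, the other high-affinity copper transporter, lay at 6.72 and 6.63 in 59A and at 5.96 and 5.84 in S288C, where it was not above background. It was at least 1.30-fold higher in 59A, counted from the limit of 6.3, with a fitted LogFC of 0.77 ± 0.08 (adjusted p = 0.000697). Within slide 1 this LogFC was 0.36, against 0.90 and 0.83 within slides 2 and 5, since the first array of S288C extract 1 gave 6.35 and the others at most 5.96.

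The other copper genes did not follow CTR1. CCC2, the ATPase that moves copper into the secretory pathway for loading onto the oxidase Fet3, lay at 8.01 and 7.99 in 59A and at 9.00 and 9.08 in S288C. Its LogFC was -1.04 ± 0.07 (adjusted p = 0.00019), so that S288C was 2.06-fold higher. ATX1, the chaperone that hands copper to Ccc2, gave -0.41 and CTR2, the transporter that releases copper from the vacuole, gave 0.13, and neither was called. Of the 4 genes taken here as Mac1 targets, CTR1 and CTR3 were called higher in 59A, FRE1 gave a LogFC of 0.24 without a call and FRE7 was not above background in either parent.

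Among the regulators CUP2 differed. Cup2 is the factor that senses copper and switches on the metallothionein genes. Its transcript lay at 10.69 and 10.47 in 59A and at 11.79 and 11.62 in S288C, a LogFC of -1.12 ± 0.11 (adjusted p = 0.000552) and a 2.18-fold higher level in S288C. AFT1 lay at 8.08 and 8.10 in 59A and at 8.40 and 8.76 in S288C, and its LogFC of -0.49 ± 0.13 was not called (adjusted p = 0.0203). MAC1 gave -0.08, YAP5, which responds to high iron, gave 0.24, and TIS11, whose product speeds the decay of mRNAs of iron-using proteins, gave -0.08, none of them called.

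Of the reductases FRE3 was called and no other. FRE3, which acts on iron bound to siderophores, lay at 7.57 and 7.55 in 59A and at 8.65 and 8.55 in S288C, with a LogFC of -1.04 ± 0.07 (adjusted p = 0.000203) and a 2.05-fold higher level in S288C. FRE1 and FRE2 encode the main reductases of free ferric iron and of copper. FRE1 gave a LogFC of 0.24 and FRE2 one of -0.43, with FRE2 not above background in 59A, and neither was called. FRE6, a reductase of the vacuole, lay at 7.77 and 7.72 in 59A and at 8.21 and 8.35 in S288C, with an adjusted p of 0.00269 but a LogFC of -0.53, within the limit of 0.7. FRE8 gave -0.29, and its S288C extracts stood apart at 6.95 and 7.42. FRE4, FRE5 and FRE7 were not above background in either parent, so that no fold is given.

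The transcript of the high-affinity iron oxidase was near background in these cultures. FET3 lay at 5.99 and 5.71 in 59A and at 6.16 and 6.24 in S288C, below 6.3 in all 4 extracts. Its partner, the permease FTR1, lay at 6.40 and 6.36 in 59A and at 6.88 and 7.04 in S288C, with a LogFC of -0.58 ± 0.08 that stayed within the limit of 0.7 (adjusted p = 0.00222). The low-affinity transporter FET4, which carries iron, copper and zinc, gave the largest difference in favour of S288C among the 39 genes. It lay at 8.06 and 8.13 in 59A and at 9.27 and 9.34 in S288C, a LogFC of -1.21 ± 0.07 (adjusted p = 0.000129) and a 2.31-fold higher level in S288C. FET5 and FTH1, the oxidase and permease of the vacuole membrane, gave -0.50 and -0.39, each with an adjusted p under 0.01 and a LogFC within the limit. Of the SMF genes, SMF1 and SMF2 carry mainly manganese and SMF3 moves iron out of the vacuole. SMF1 gave 0.56 (adjusted p = 0.00152), within the limit, while SMF2 gave -0.13 and SMF3 0.11.

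The siderophore carriers differed in opposite directions. ARN1, a carrier of hydroxamate siderophores of the ferrichrome kind, lay at 8.94 and 8.93 in 59A and at 7.82 and 8.14 in S288C. Its LogFC was 0.96 ± 0.12 (adjusted p = 0.00132), a 1.94-fold higher level in 59A. ARN2, a carrier of triacetylfusarinine C that lies 7 genes from ARN1 on chromosome 8 in the reference order, lay at 7.94 and 7.87 in 59A and at 8.87 and 8.90 in S288C. Its LogFC was -0.98 ± 0.07 (adjusted p = 0.000209), with 1 of the 6 arrays of S288C missing a value and left out of the mean. ENB1, the carrier of enterobactin, gave -0.31 and was not called. The FIT genes encode mannoproteins of the cell wall that retain siderophore iron. FIT1 and FIT2 were not above background in 59A and gave -0.45 and -0.32, and FIT3 lay at 8.48 and 8.63 in 59A and at 8.80 and 9.34 in S288C, with a LogFC of -0.52 ± 0.18 (adjusted p = 0.0543). None of the FIT genes was called.

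No gene of storage, mitochondrial iron or heme breakdown was called. MRS3, a mitochondrial iron carrier, came closest, with 8.22 and 8.21 in 59A against 7.55 and 7.49 in S288C and a LogFC of 0.69 ± 0.07 (adjusted p = 0.000601). HMX1, the heme oxygenase, lay at 7.96 and 7.69 in 59A and at 7.21 and 7.08 in S288C, with a LogFC of 0.68 ± 0.11 (adjusted p = 0.00376). MMT1, a mitochondrial metal transporter, gave 0.57 (adjusted p = 0.00128) and ISU1, the main scaffold for iron-sulfur clusters, gave -0.49 (adjusted p = 0.00758), all within the limit of 0.7. MRS4, the relative of MRS3, gave 0.35, ISU2, the relative of ISU1, gave -0.16 and CCC1, which stores iron in the vacuole and lacks 1 array of 59A, gave -0.27. Without the limit on LogFC 17 of the 39 genes had an adjusted p under 0.01, beside 45.4% of all probes. With the limit, 1 of the 17 genes taken here as Aft1 targets was called higher and 3 lower in 59A, beside 12.9% and 12.4% of all probes. The median LogFC of these targets was -0.39. This list was drawn up with results of these data known.

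**Figure D2:**
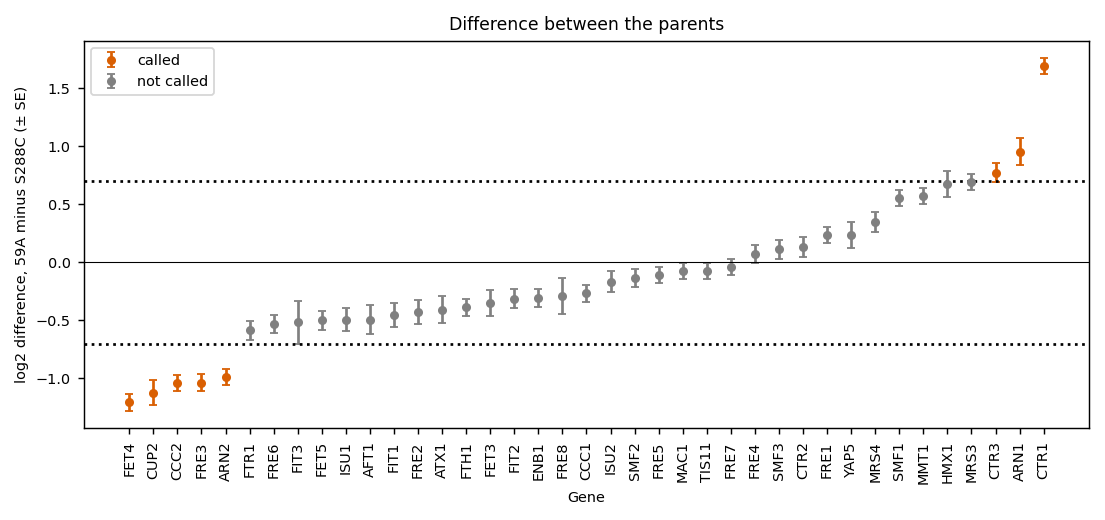
LogFC of the 39 genes (59A minus S288C, y axis, log2) in rising order, with the SE of the moderated test over 2 extracts a strain as error bars, orange for called genes and grey for the others. The dotted lines are the limits of 0.7 on either side; CTR1 stands alone at 1.69, and MRS3 and HMX1 end just under the upper limit.

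Genes of neighbouring pathways were read in the same fit, and 19 of 72 were called higher and 8 lower in 59A, beside the 12.9% and 12.4% of all probes. In copper handling 6 of 10 probes were higher, with the copies CUP1-1 and CUP1-2 counted as 2, and 3 were lower. COX17, SCO2 and SCO1, which bring copper to cytochrome oxidase, were higher in 59A by 1.86, 1.25 and 0.86, and the mitochondrial carrier PIC2, by -2.01, the superoxide dismutase SOD1 and its copper chaperone CCS1, by -1.24, were lower. The metallothionein CUP1, whose probes CUP1-1 and CUP1-2 stand for near-identical copies and cannot be told apart, gave 0.86 and 0.84, while CUP2 gave -1.12. The 2 extracts of 59A differed by 0.34 at CUP1-1, with 14.89 and 14.56 against 14.05 and 13.69 in S288C.

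In heme synthesis 3 of 8 genes were higher in 59A, led by HEM13, the oxygen-dependent step that is induced when heme is short, with 13.00 and 12.95 in 59A against 9.85 and 10.10 in S288C (LogFC 3.00). Of 21 genes of iron-sulfur cluster assembly 4 were higher, with IBA57 at 2.09, YAH1 at 2.01 and NFS1 at 1.12, and ISA1 was lower at -0.75. In zinc uptake 1 of 9 was higher and 3 lower, among them the transporter ZRT1 at -2.22 and the regulator ZAP1 at -0.99. Of 11 other genes of the iron regulon and of iron sensing, the biotin transporter VHT1, at 1.45, and GRX3, a glutaredoxin that restrains Aft1, at 0.78, were higher and none was lower. Of 13 iron-using enzymes BIO2, CCP1 and ILV3 were higher at 1.44, 0.92 and 0.76 and CTT1 was lower at -0.81.

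The second comparison asked whether the segregants averaged halfway between 59A and S288C, as additive allele effects would give. Of 6227 probes 0.145% were called at an adjusted p under 0.01, and 0 of the 39 genes were. This cannot place the segregants at the midpoint, because the spread among segregants entered the error of the midpoint too. In ARN2 the SE was 0.64, beside SDs of 1.28 over segregants and of 0.04 and 0.02 over extracts of 59A and S288C. Over the 39 genes, segregants above the midpoint ran from 7 of 41 in ARN2 to 38 of 44 in MRS3. At an unadjusted p under 0.05, 1 gene passed by limma's test, MRS3, where the segregants averaged 0.46 ± 0.21 (SE) above this midpoint (p = 0.0334, adjusted p = 0.997).

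Most of these genes varied more among segregants than among arrays of a parent. The median SD over the 32 genes whose segregant median lay above 6.3 was 0.41, beside 0.37 over 5296 such probes in all. Heritability in the broad sense, the share of the variance over segregants that exceeds the variance of single parental arrays, had a median of 94.7% for these 32 genes and 93.1% for those probes. It takes the spread of 6 arrays a parent as the error and so leaves out the spread between cultures of a segregant. A segregant is counted as beyond the parents, here and in all counts that follow, where it lay above the higher or below the lower parental mean by more than 2 SD of single parental arrays. By this margin 37 of 39 genes had at least 1 segregant beyond the parents, which also held for 95.1% of all probes.

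**Figure D3:**
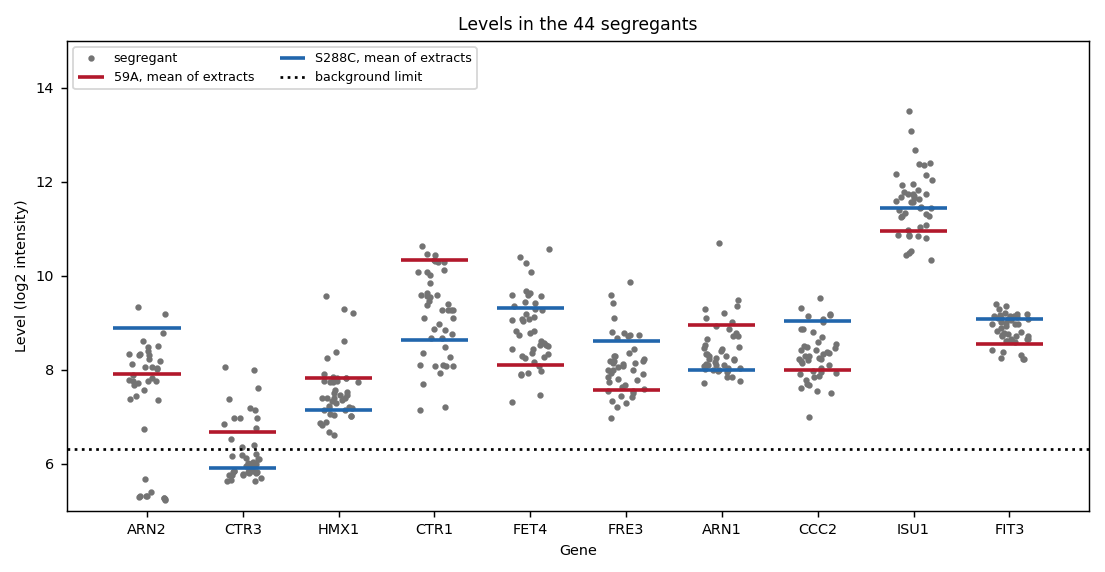
Level (log2 intensity, y axis) of 10 of the genes in each segregant (grey points, up to 44 a gene, spread sideways for view only), with red and blue lines at the mean of the 59A and S288C extracts and a dotted line at 6.3. ARN2 has 10 points at or below 5.66 and none from there to 6.74, while CTR1 fills its range from 7.15 to 10.64.

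CTR1 was among the most variable. The segregants ran from 7.15 in 13b through a median of 9.27 to 10.64 in 20b, an 11.2-fold range, and 94.6% of the probes above background had a smaller SD than its 0.91. By the margin of 2 SD, CTR1 lay below both parents in 12 segregants and above both in 3. Its heritability was 99.8%, the highest of the 39 genes. FET4 ran from 7.31 in 18b through 8.79 to 10.57 in 14a, with 5 segregants below and 9 above both parents by the same margin. FRE3 ran from 6.98 in 19b through 8.06 to 9.86 in 19c, and 20a was next at 9.58. CCC2 ran from 6.98 in 20a through 8.29 to 9.52 in 7a. CTR1, FET4, FRE3 and CCC2, all called between the parents, each had segregants beyond the parents on both sides by that margin. Of the other called genes ARN2 did too, ARN1 and CTR3 had them only above and CUP2 had none. Segregants on both sides occurred in 71.8% of the 39 genes, beside 69.5% of all probes.

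Genes that were not called between the parents also spread among the segregants, and counts beyond the parents again use the margin of 2 SD. TIS11, at a LogFC of -0.08, ran from 6.28 in 7a through 7.01 to 9.40 in 14a, and the next segregant, 22b, lay at 7.85. SMF3, at a LogFC of 0.11, ran from 9.62 in 24a through 10.80 to 12.31 in 28b, with 13 segregants below and 16 above both parents. ISU1 ran from 10.33 in 22c through 11.56 to 13.51 in 28b, above both parents in 18 segregants, and ISU2 was above both in 20. MRS3, with a LogFC of 0.69, lay above both parents in 24 of 44 segregants and below both in 2, by more than 2 SD of single arrays. ENB1 ran from 5.96 in 28b through 6.84 to 8.20 in 9c, and 26 of its 42 values lay below both parents. SMF1 ran from 6.64 in 20a through 8.10 to 8.92 in 1b, and SMF2 from 8.14 in 26c through 8.95 to 10.31 in 14a. MRS4 ran from 8.63 in 7a through 9.61 to 10.71 in 6d.

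Of the regulators TIS11 had an SD of 0.48 over segregants and the other 4 had SDs from 0.23 to 0.33. MAC1 ran from 7.73 in 7a through 8.14 to 8.83 in 16d, AFT1 from 7.67 in 20a through 8.30 to 8.92 in 21c, YAP5 from 6.93 to 8.33 over 42 values and CUP2 from 10.39 in 31b through 10.90 to 11.84 in 16d over 43. By the margin of 2 SD CUP2 had no segregant beyond the parents, although 31b and 16d lay outside the range of the 4 parental extracts. FIT3 had none by that margin either, with 20a and 24a outside the range of the extracts, running from 8.22 in 20a through 8.90 to 9.40 in 24a. Its heritability of 48.8% was the lowest of the 39 genes, beside an SD of single arrays of 0.22. It was followed by FET3 with 51.9%. FET3 lay below 6.3 in 42 of 44 segregants, with 10b at 7.01 and 29c at 6.64 above it. FRE5 and FRE7 lay below 6.3 in all 44, FRE4 in 34 of 43, FIT1 in 27, FIT2 in 23 and FRE2 in 17.

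A few segregants held the extremes of many genes. 14a was highest in 7 genes, which were TIS11, FET4, SMF2, ARN1, FIT1, CTR2 and ATX1, and lowest in CCC1 and HMX1. ARN1, CTR2 and SMF2 lie on chromosome 8, and 14a reached 10.71, 8.67 and 10.31 in them. TIS11, FET4, FIT1 and ATX1 lie on chromosomes 12, 13, 4 and 14. ARN2, on chromosome 8 too, lay at 8.01 in 14a, below its highest value of 9.34. 20a was lowest in 9 genes, among them FET5 at 7.75, FTH1 at 6.28, SMF1 at 6.64, AFT1 at 7.67 and FIT3 at 8.22, and highest in MMT1 at 8.44. 28b was highest in 4, which included ISU1 and ISU2, and 19c in 3, which included FRE1 at 8.21 and FRE3. Each of these segregants has 1 array, so no spread between repeats of a segregant is known.

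Levels that fell into separate ranges were looked for by the best split of the 44 values with at least 6 on either side, as a description. The difference of the means exceeded 4 within-range SD in ARN2 (5.92), CTR3 (4.62), FRE7 (4.37) and HMX1 (4.07), that is in 4 of 39 genes, beside 6.73% of all probes. FRE7 did so with every value below 6.3, between 5.29 and 5.74, and has no interpretable level. After the slide means were subtracted 0 of the 39 genes passed. Subtraction mixes the ranges wherever slides hold them in unequal shares, as they did for ARN2, so this does not show a slide effect.

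ARN2 showed the clearest gap. In 10 of 41 segregants it lay between 5.22 and 5.66, not above background, and in 31 it lay between 6.74 and 9.34. The values of 7a, 7b and 9c are missing. Neither parent lay in the lower range, with 7.90 ± 0.04 in 59A and 8.89 ± 0.02 in S288C (SD, 2 extracts each), and 17 segregants in all lay below both parents by more than 2 SD of single arrays. The low values occurred on 5 of the 7 slides, in 3, 2, 3, 1 and 1 segregants. Its SD of 1.28 was the largest of the 39 genes and exceeded that of 98.3% of probes above background.

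Of the 5 probes whose levels were most like those of ARN2, the 4 with a gene name ran opposite to it and lie on chromosome 16. Among 5439 probes the largest r in size were with ELP4 (-0.90), the unnamed probe A_06_P3562 (0.89), MRPL40 (-0.86), ACM1 (-0.86) and RVB2 (-0.85), over 41 segregants, where the separate ranges of ARN2 weigh heavily. Within the 31 segregants of the upper range r was -0.64 for ELP4, -0.36 for MRPL40, -0.74 for ACM1 and -0.38 for RVB2. Within the 10 of the lower range it was 0.35, 0.20, -0.42 and -0.20. ARN2 was not above background in the lower range, so r within that range, here and below, has no reading. The study describes a translocation between chromosomes 8 and 16 that 59A carries, and a part of the segregants that hold the left arm of chromosome 16 in an extra copy as a result. It refers to regions of both chromosomes, 8 and 16, as deleted or duplicated. It also lists a group of linkages on chromosome 8 as a consequence of the extra copy. Whether ARN2 is among the deleted genes was not tested here. The study names 7a as a segregant with the extra arm, and the ARN2 value of 7a is missing. The labels do not mark the segregants with the extra arm, so ARN2 was not compared between them and the others. In the segregants with the extra arm the study reports most genes of the arm as higher and many genes elsewhere as different. Correlations over segregants were not adjusted for this. By locus name ARN2 is on the left arm of chromosome 8, and ELP4, MRPL40, ACM1 and RVB2 are on that of chromosome 16. ISU1, also on the left arm of chromosome 16, gave an r with ARN2 of -0.52 over the 41 segregants. Within the upper range of ARN2 this was -0.09 and within the lower 0.07. ARN1, 7 genes from ARN2, gave -0.31 over the 41 segregants, 0.00 within the upper range and 0.37 within the lower.

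CTR3 and HMX1 were split less clearly, and in both a wider gap lay within the upper values than at the split. No CTR3 value lay between 7.61 in 29c and 7.99 in 10b, and no HMX1 value between 8.60 in 10b and 9.21 in 15b. CTR3 lay at or below 6.52 in 33 segregants and at 6.75 to 8.05 in 11, with 30 below 6.3. By more than 2 SD of single arrays it lay above both parents in 6 segregants, led by 23b at 8.05 and 10b at 7.99, and below both in none, with values below 6.3 having no order. Its nearest genes by r were VMA22 (-0.59), VPS36 (-0.58), SRT1 (0.57), MLC2 (-0.57) and KEX2 (0.56), and VPS36 lies 6 genes from CTR3. Over the 11 upper values r with VPS36 was -0.40. Over the 33 lower ones it was -0.40 as well, but most of these lay below 6.3, so this r has no reading. The r of CTR3 over all segregants takes in the same values. HMX1 lay at or below 7.91 in 38 segregants and from 8.25 to 9.58 in 6, with 7a highest and 16c next at 9.29. HMX1 went with ECM13 (0.78), CYC1 (0.78), YEH1 (0.77), PDR16 (0.73) and IZH1 (0.73), and over the 38 lower values alone r was 0.52, 0.54, 0.52, 0.32 and 0.59. CYC1 encodes cytochrome c, a heme protein.

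Spores 16a to 16d and 22a to 22d are the numbers with 4 segregants. ARN2 lay in the upper range in all 8, at 8.49, 7.89, 8.05 and 8.60 in the first and 7.76, 9.34, 9.19 and 7.66 in the second. HMX1 was 8.37, 7.02, 9.29 and 7.84 in 16a to 16d, with 16a and 16c in the upper range, and 7.20, 7.76, 7.28 and 7.39 in 22a to 22d. CTR3 reached its upper range in 16d, at 6.85, and in 22c, at 6.98. FRE7 lay between 5.36 and 5.70 in all 8. The study's methods say that complete tetrads are among the segregants, and these are the only numbers with 4 spores, but the labels do not name the tetrads.

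The last comparison asked which of the genes varied together over the 44 segregants. The 26 genes with a value in each segregant, a median above 6.3 and no separate ranges gave 325 pairs. In 15 pairs r was 0.6 or more, beside 2.02% of all pairs of 4167 such probes, and in 5 pairs it was -0.6 or lower, beside 1.54%. These shares are 4.62% and 1.54% of the 325 pairs. Of the 20 pairs, 19 had an adjusted p under 0.01 for both Pearson's r and Spearman's rho (100000 permutations, Benjamini-Hochberg over the 325 pairs), and the exception was TIS11 with ARN1, where r was 0.63 and rho 0.28 and where r was 0.35 without 14a and 22b. Without 14a, 19c and 20a, chosen after seeing the data, 7 pairs passed 0.6 in size, 2.15% of the pairs beside 1.82% of all pairs of probes, against 6.15% beside 3.55% with every segregant. Most of the excess over all pairs thus rests on these 3 segregants.

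**Figure D4:**
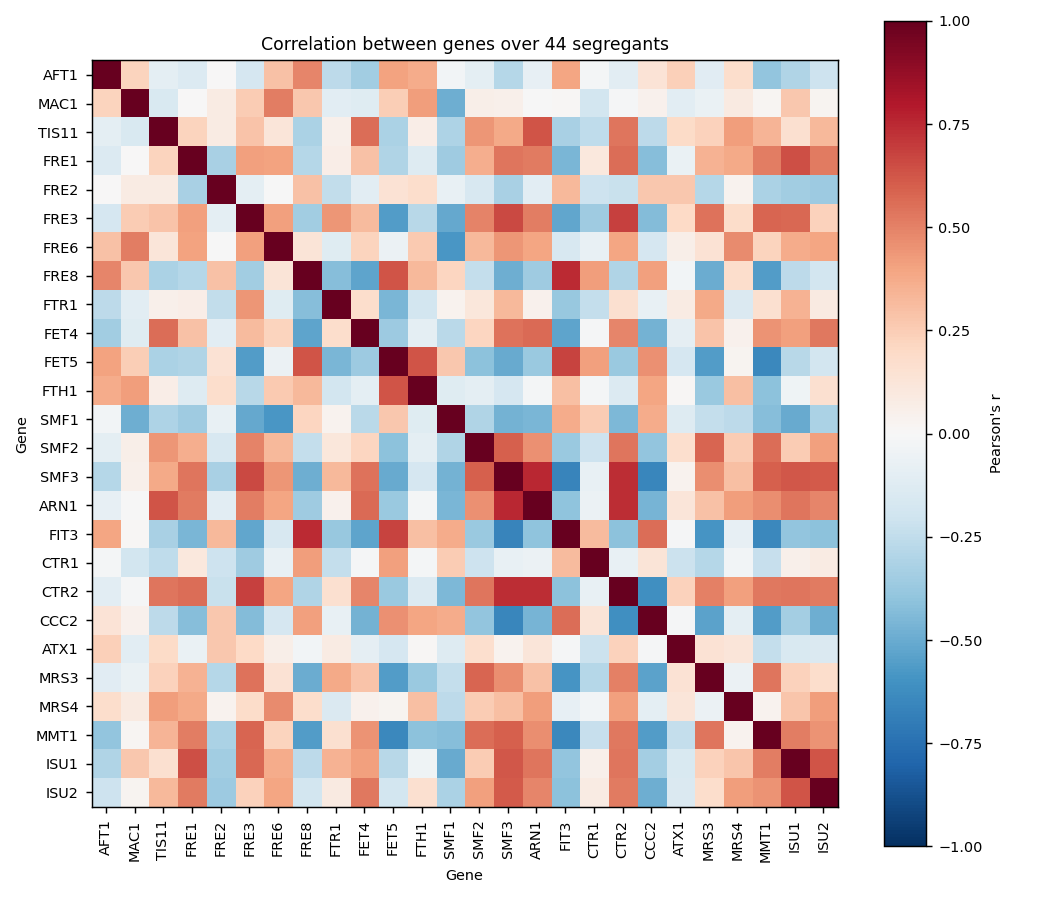
Pearson's r between the 26 genes over 44 segregants (red positive, blue negative, both axes in the order of the roles). SMF3 has strong red cells with ARN1 (0.75) and CTR2 (0.74) and strong blue ones with FIT3 (-0.66) and CCC2 (-0.65).

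SMF3 took part in the most of the 10 strongest pairs. It correlated with ARN1 at r = 0.75 and rho = 0.73 (adjusted permutation p = 0.000271 and 0.000361), and r was 0.69 without the 2 segregants farthest from the median, 28b and 14a, and positive within each of the 7 slides, from 0.40 to 0.93. With CTR2 it gave r = 0.74 and rho = 0.67, and 0.62 without 28b and 14a. It gave 0.66 with FRE3, and 0.60 without 19c and 20a. It ran opposite to FIT3 (r = -0.66, rho = -0.59) and to CCC2 (r = -0.65, rho = -0.67), at -0.58 and -0.63 without 28b and 14a. SMF3 and CTR2 both act at the vacuole membrane, where they let iron and copper out.

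FRE8 and FIT3 varied together, at r = 0.74 and rho = 0.74, and r was 0.72 without 23c and 20a, with all 7 slides positive, from 0.08 to 0.93. FET5 and FIT3 gave 0.68 and rho 0.62, and 0.60 without 20a and 19c, with 1 slide at -0.30. FRE3 and CTR2 gave 0.68 and rho 0.60, and 0.62 without 19c and 20a. ARN1 and CTR2, both on chromosome 8, gave r = 0.74 but rho = 0.52, and r was 0.57 without 14a and 19c. FRE1 and ISU1 gave 0.65 and rho 0.51, and 0.50 without 19c and 28b. The permutation p of r in these pairs was 1e-05, the smallest that 100000 permutations can give.

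**Figure D5:**
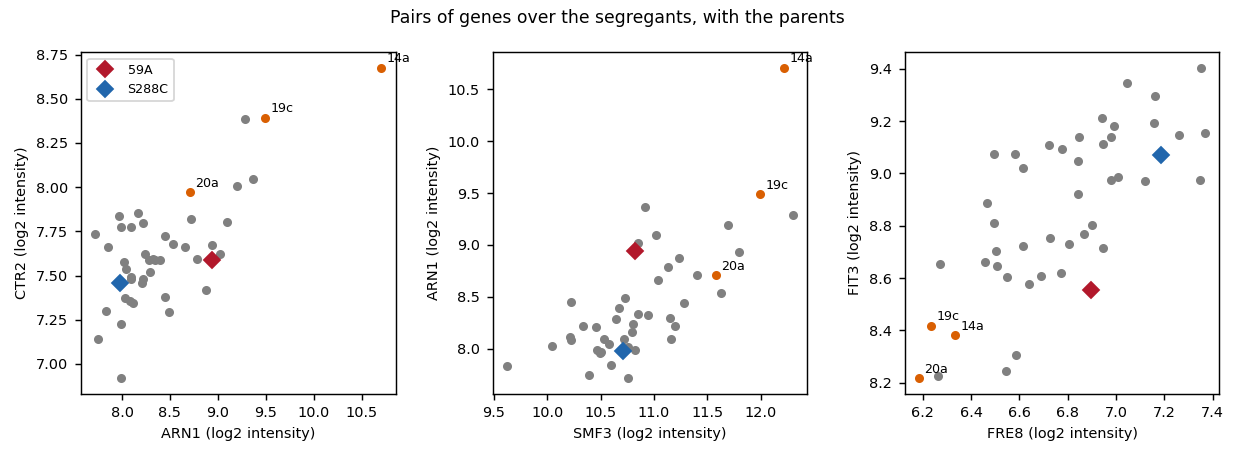
Pairs of genes over the 44 segregants (log2 intensity on both axes, grey points), with 14a, 19c and 20a in orange and the parents as red (59A) and blue (S288C) diamonds. 14a, at 10.71 in ARN1 and 8.67 in CTR2, lies at the far end of the first panel, where r fell to 0.57 without 14a and 19c, and FRE8 with FIT3 keeps an r of 0.72 without 23c and 20a.

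Genes under a common regulator correlated in both directions. Over the 11 Aft1 targets that could be paired, the median r of 55 pairs was 0.05, from -0.66 to 0.75, beside 0.05 over the 325 pairs and 0.00 over all pairs of probes. Among these 55 pairs 3 had an r of 0.6 or more (5.45%) and 2 an r of -0.6 or lower (3.64%), beside 2.02% and 1.54% of all pairs of probes. AFT1 itself gave 0.39 with FIT3 (adjusted permutation p = 0.0235), -0.26 with FTR1 and -0.08 with ARN1. CTR1 and FRE1, the only Mac1 targets that could be paired, gave r = 0.11, and MAC1 with CTR1 gave -0.19. FRE3 and FIT3, which lie within 4 genes of each other on chromosome 15, gave -0.52 (adjusted permutation p = 0.00186).

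Beyond the 39 genes, the levels most like those of FIT3 were of CDC10 (-0.83), VMA5 (-0.83), PET127 (0.82), XYL2 (0.82) and FRS1 (-0.82), over 44 segregants and 5159 probes. None of these 5 is in a gene list used here. CTR1 went most with PET122 (-0.67), KAP114 (-0.61), TFC8 (-0.59), the unnamed probe A_06_P3697 (0.59) and SPT6 (-0.58). FET3, near background, went with the unnamed probe A_06_P5891 (0.73), the hexose transporters HXT16 (0.70) and HXT17 (0.68), RGP1 (0.62) and SYF2 (-0.61). For FRE7, below background throughout, the nearest were THI4 (-0.72), PET127 (0.71) and MVP1 (-0.65), with the unnamed probes A_06_P5293 (0.65) and A_06_P2182 (0.64). These coefficients were picked as the largest among all probes compared and are given as descriptions.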

How the data were processed

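RNA of 12 parental and 44 segregant samples was hybridised to one-colour Agilent arrays. The deposited values are log2 intensities, which the authors read with GenePix and quantile normalised in R 2.13.1 with its limma package. The methods count fewer arrays than the samples here and do not say which one was not counted. No build is named, so from the reference annotation came names, chromosomes and the order of genes. The mean of the 3 arrays of an extract was used. Strain differences came from limma 3.58.1 (R 4.3.3, moderated test, Benjamini-Hochberg over 6245 probes, adjusted p under 0.01 and log2 difference above 0.7), and segregants with the midpoint over 6227. A probe needed 2 arrays an extract and 40 segregants; missing values were not filled in. A parent was not above background where both extracts lay below 6.3, and folds are then counted from 6.3. Correlations used 100000 permutations with the seed 1 in Python 3.11.15, numpy 2.4.6 and pandas 2.3.3; figures used matplotlib 3.10.9. The fits were tested on simulated data. The number of arrays limits the precision. The 39 genes and the gene lists were chosen with earlier results of these data known. All 39 genes are named, with up to 4 genes of each other list by smallest adjusted p, the 5 genes nearest by r to FET3, FIT3, CTR1 and the genes with separate ranges, and the 10 strongest pairs; other pairs, ILV3, SOD1, SCO1, CUP1-1 and CUP1-2 were named after their values were seen. Alternatives treated arrays, extracts, slides, dim genes, scaling and single extracts otherwise.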

Additional observations from a re-analysis of the deposited data

Results flagged for a closer look

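In 7 of 78 sets of parental arrays of a gene, 1 array lay far from the others of its parent (Dixon's 95% limit), where chance alone flags about 1 set in 20. FTR1 in S288C gave 7.31 in extract 2 array 1, against 6.92 or less on the other 5 arrays. CTR3 in S288C gave 6.35 in extract 1 array 1, against 5.96 or less. The other flags were in 59A. FET3 gave 6.36 in extract 1 array 3, where the next array gave 5.88. FTR1 gave 6.50 in extract 1 array 1, SMF1 gave 8.64 and MMT1 gave 7.34 in extract 1 array 2, each as the highest. FRE4 gave 6.04 in extract 1 array 2 as the lowest.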

How the results depend on the processing

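The 3 genes higher and 5 lower in 59A were counted again under 10 alternatives for the parents. Leaving out 1 extract at a time gave 3 to 5 higher and 5 to 6 lower, with MRS3 and HMX1 joining without extract 2 of 59A or extract 1 of S288C and FIT3 without the latter. With no minimum difference 7 were higher and 10 lower. CTR3 fell out where genes with a mean of 6.3 or less were dropped, leaving 2. With the replicate number as a block the counts were 3 and 5. Deviations of same-numbered extracts correlated at 0.437, and with 2 extracts a strain the numbers do not show a pairing. The 27 other pathway genes called became 25 to 28 under the alternatives and 40 with no minimum difference. No gene was called against the midpoint under any alternative run, which does not show that segregants averaged there. The 20 correlated pairs became 12 by Spearman's rho, 4 at a limit of 0.7 and 7 without 14a, 19c and 20a. The 4 genes with separate ranges became 26 at a separation above 3, 8 with at least 3 segregants a side and 0 after subtraction of slide means, which mixes the ranges wherever slides hold them in unequal shares. Median heritability of the 39 genes was 92.6%, or 94.9% with the variance between extracts. Values near background understate differences, and each segregant has 1 array.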
